A study of Homo sapiens with 2 samples.

Results

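miR-103 and miR-107 are a pair of near-identical microRNAs (miRNAs) made from 3 human hairpins, hsa-mir-103a-1, hsa-mir-103a-2 and hsa-mir-107, which lie in introns of the pantothenate kinase genes. They were followed in small-RNA sequencing of 2 libraries, 1 from each of 2 breast cancer cell lines. Every table row whose precursor is 1 of these hairpins was taken, on both arms, without regard to its values. This gave 4 of the 2121 rows, carrying 3 of the 1623 annotated mature names: hsa-miR-103a-3p on both miR-103a hairpins, hsa-miR-103a-2-5p, and hsa-miR-107. No row holds a 5p arm of hsa-mir-103a-1 or hsa-mir-107, and no row names miR-103b, which is annotated on the opposite strand of the miR-103a hairpins.

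Both groups were stem-enriched cells sorted with the surface markers CD24 and CD44, grown with the same serum and antibiotic supplements but in different basal media. The line MDA-MB-468 is triple-negative, labelled negative for ER (the oestrogen receptor), PR (the progesterone receptor) and HER2. BT474 is labelled ER-positive. Each group is 1 library of 1 line, so no difference between the groups has a replicate check, and line, sort and medium cannot be told apart. Each error is a 95% interval that covers counting error only. Counting error here treats reads as independent, so the intervals are too narrow where PCR copies were read.

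A miRNA is cut from its hairpin first by Drosha in the nucleus and then by Dicer, the product of DICER1, in the cytoplasm. One strand of the resulting duplex, the guide, is usually kept and pairs through its seed with target transcripts, which it represses. miR-103 and miR-107 have been described as repressors of DICER1 itself, and in breast cancer they have been linked with lower Dicer levels and with metastasis. Their host genes encode the kinases that start the synthesis of coenzyme A, and both miRNAs have also been studied in insulin and lipid metabolism.

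The sequences show what the libraries can and cannot tell apart. The mature sequences below are RefSeq's (GRCh38.p14), 5′ to 3′, with the seed, bases 2 to 8, in capitals. The last of them has no row in the table and is shown to mark how little separates the 5p arms.
hsa-miR-103a-3p: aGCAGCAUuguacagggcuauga
hsa-miR-107: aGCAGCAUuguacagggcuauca
hsa-miR-103a-2-5p: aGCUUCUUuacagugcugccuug
hsa-miR-103a-1-5p: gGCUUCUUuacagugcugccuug
Counting from 1 at the 5′ end, miR-107 differs from miR-103a-3p by the single substitution G22C, so the first 21 bases are the same. The seed is shared by these and by no other of the 2370 mature names in the RefSeq table, a share of 0.0844%. The 5p arms of the 2 miR-103a hairpins differ by G1A and have a seed of their own.

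The hairpins are shown to place the arms, with the arms that have a row in the table in capitals.
MIR103A1: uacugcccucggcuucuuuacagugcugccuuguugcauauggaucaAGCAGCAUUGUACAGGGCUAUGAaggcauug
MIR103A2: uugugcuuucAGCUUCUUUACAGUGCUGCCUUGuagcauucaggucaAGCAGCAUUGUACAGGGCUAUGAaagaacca
MIR107: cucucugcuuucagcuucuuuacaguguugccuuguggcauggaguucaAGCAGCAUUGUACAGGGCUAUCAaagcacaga
MIR103A1 lies at chr5:168560896-168560973 on the minus strand, MIR103A2 at chr20:3917494-3917571 on the plus strand and MIR107 at chr10:89592747-89592827 on the minus strand. In GENCODE 29 all 3 lie on the strand of their host gene, and each is in intron 5 of 6 of the principal transcript of PANK3 (MIR103A1), PANK2 (MIR103A2) or PANK1 (MIR107). The hairpins start 419, 443 and 369 bases after the upstream exon, respectively. In the MIR107 hairpin the stretch from base 13 to base 35 matches miR-103a-2-5p except for C16U, numbered along the arm. The 3p arm has the same 23 bases in both miR-103a hairpins, which also share the 3 bases before it and 1 base after it. A read of miR-103a-3p therefore names a hairpin only when it runs further.

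miR-103a-3p was an abundant miRNA in both lines, and it was 1.53-fold higher in MDA-MB-468. It had 71626 counts in the MDA-MB-468 library and 21010 in the BT474 library. Scaled to counts-per-million (CPM) of annotated miRNAs, this was 6257 CPM (exact Poisson interval 6211 to 6303) and 4093 CPM (4038 to 4149), or 0.626% and 0.409% of the library. The log2 ratio of MDA-MB-468 over BT474 was 0.61, with an exact conditional binomial interval of 0.59 to 0.63. The interval lay above 0, so the libraries differed beyond counting error with reads taken as independent. The ratio stayed under 2-fold and was not called. A miRNA was called where its ratio reached 2-fold in either direction and the interval of the ratio excluded 1. Different miRNAs within a library are compared by their counts, and how evenly each sequence was captured was not measured.

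miR-107, which carries the same seed, had the fewer counts of the pair in both libraries. Its 4845 counts in MDA-MB-468 were 423 CPM (411 to 435), and its 1226 counts in BT474 were 239 CPM (226 to 253). It was higher in MDA-MB-468 by 1.77-fold (log2 ratio 0.83, interval 0.73 to 0.92), beyond counting error with reads taken as independent but again under 2-fold. Both seed-sharing guides were thus higher in the triple-negative library by a modest amount, and the replicate spread against which to judge it was not measured.

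miR-103a-2-5p, the strand opposite the guide of the PANK2 hairpin, was rare. It had 29 counts in MDA-MB-468, or 2.53 CPM (1.70 to 3.64), and 2 counts in BT474, or 0.390 CPM (0.0472 to 1.41). The ratio was 6.50-fold (interval 1.64 to 56.2) and the log2 ratio 2.70 (0.72 to 5.81), so it was called higher in MDA-MB-468. A count of 2 is the smallest that the table lists, and a miRNA with 2 counts in BT474 entered the comparison only with at least 10 in MDA-MB-468, which alone makes its fold 2.24 or more. Of the 28 miRNAs with 2 counts in BT474 that entered the comparison, 15 were called higher.

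**Figure D1:**
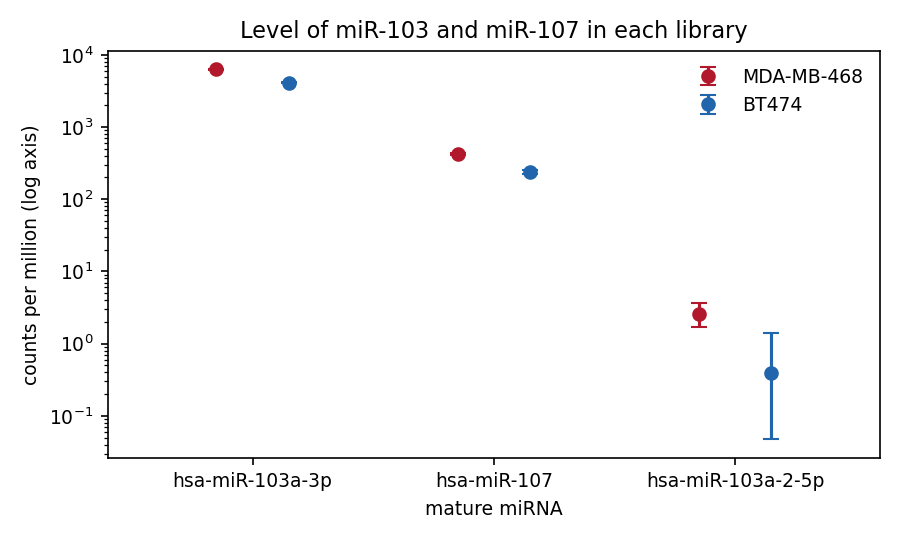
Counts-per-million (log axis) of each mature miRNA of the 3 hairpins in the MDA-MB-468 and BT474 libraries, with points for the values and bars for exact Poisson 95% intervals. miR-103a-3p stood at 6257 and 4093 CPM, miR-107 at 423 and 239 CPM, and miR-103a-2-5p at 2.53 and 0.390 CPM, with wide bars on the last.

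These ratios were read against all miRNAs. The 690 miRNAs that reached 10 counts in either library entered the comparison, and 61.2% of them were called. The calls were in the direction of MDA-MB-468 for 32.9% and of BT474 for 28.3%. The minimum was reached by 603 miRNAs in the deeper MDA-MB-468 library and by 506 in BT474. Of the 690, 90 had no count listed in BT474 and 46 none in MDA-MB-468, so these entered through 1 library alone. How far this and the difference in depth set the shares by direction was not tested. Neither guide was called. The only call among the products of these hairpins was that of miR-103a-2-5p, which entered through its MDA-MB-468 count alone and is not set against these shares. The median log2 ratio over the 690 was 0.30, and 55.4% of them had a lower ratio than miR-103a-3p and 60.3% a lower ratio than miR-107. Of the 76 miRNAs that reached 1000 CPM in a library, 56.6% were called and the median was 0.46, so miR-103a-3p at 0.61 lay 0.15 above it. miR-107 did not reach 1000 CPM.

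**Figure D2:**
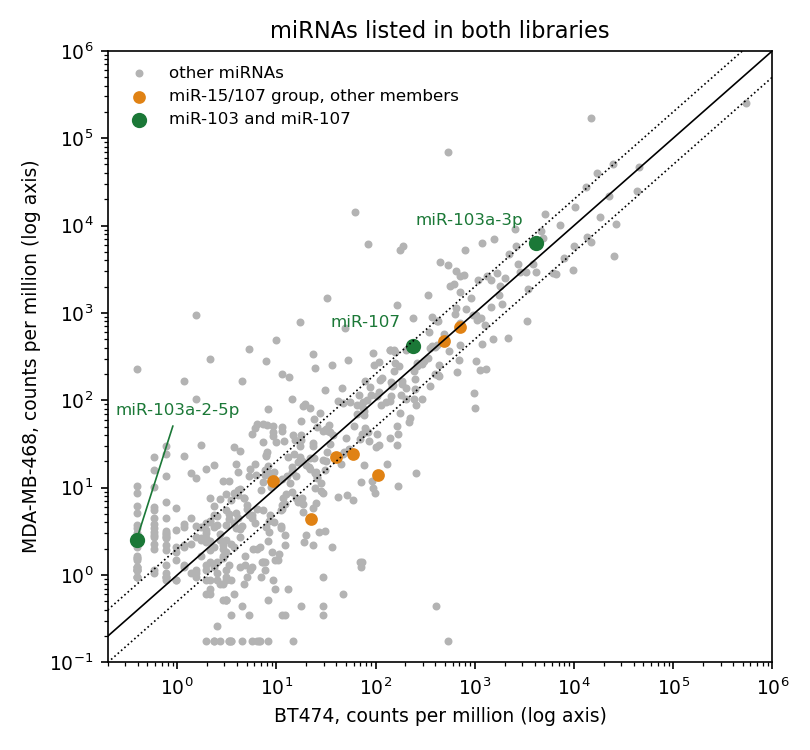
Counts-per-million in BT474 (x, log axis) and MDA-MB-468 (y, log axis) of the 554 miRNAs that entered the comparison and are listed in both libraries, with the solid line at equal levels and the dotted lines at 2-fold. miR-103a-3p and miR-107 lie between the solid and the upper dotted line, and miR-103a-2-5p lies in the column of miRNAs with 2 counts in BT474.

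In the order of abundance miR-103a-3p took rank 23 in MDA-MB-468 and rank 25 in BT474. Its Poisson interval overlapped those of its neighbours in MDA-MB-468, miR-20a-5p at 6260 CPM and miR-30a-3p at 6199 CPM, and that of miR-423-3p at 4102 CPM above it in BT474. It did not overlap that of miR-27a-3p below it in BT474, at 3820 CPM. miR-107 took rank 91 and rank 110, and its interval overlapped those of miR-744-5p (424.4 CPM) and miR-186-5p (416 CPM) in MDA-MB-468 and of miR-361-5p (243 CPM) and miR-769-5p (238 CPM) in the BT474 library. Likeness to other miRNAs was taken as the distance between log2 CPM values over the 2 libraries, a description with only 2 points per miRNA. The nearest to miR-103a-3p were miR-200a-3p (distance 0.32), miR-148b-3p (0.50), miR-99a-5p (0.66), miR-27a-3p (0.78) and miR-378a-3p (0.87). The nearest to miR-107 were miR-374a-3p (0.13), miR-378c (0.30), miR-197-3p (0.58), miR-186-5p (0.62) and miR-143-3p (0.65).

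The balance between the PANK1 product and the products of PANK2 and PANK3 does not depend on the scaling between libraries. miR-107 made up 6.34% of the summed counts of miR-107 and miR-103a-3p in MDA-MB-468 (4845 of 76471, Clopper-Pearson interval 6.16 to 6.51) and 5.51% in BT474 (1226 of 22236, 5.22 to 5.82). The difference was 0.822 percentage points and the intervals did not overlap. Put as counts, there were 14.8 of miR-103a-3p for each of miR-107 in MDA-MB-468 and 17.1 in BT474. The fold of miR-107 was 1.16 times that of miR-103a-3p (exact conditional interval 1.09 to 1.24). miR-107 thus had the larger fold of the pair, beyond counting error with reads taken as independent. A tag that stops before base 22 is the same in both miRNAs, and how such tags were counted is not given in the sources used here, so their part in the share was not tested.

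The hairpins of PANK3 and PANK2 were compared next. The miR-103a-3p counts listed for mir-103a-1 were 69472 in MDA-MB-468 and 20802 in BT474. Those for mir-103a-2 were 71626 and 21010. The log2 ratio was 0.58 (interval 0.56 to 0.60) on mir-103a-1 and 0.61 (0.59 to 0.63) on mir-103a-2. Because most tags match both, these are largely the same counts and not 2 measurements. The net surplus of mir-103a-2 over mir-103a-1 was 2154 counts in MDA-MB-468, or 3.01% of its own count, and 208 counts in BT474, or 0.990%. It is the difference of 2 overlapping counts, so tags particular to mir-103a-1 can be hidden in it and no interval is given. The median gap between precursors was taken over the 25 miRNAs that are listed on several precursors with at least 100 counts in both libraries. It was 3.01% in MDA-MB-468 and 1.31% in the BT474 library. The gap was wider in MDA-MB-468 for 18, wider in BT474 for 2 and equal in the rest. miR-103a-3p is 1 of the 25, and its own gap is the median in MDA-MB-468. In that library 12 had a wider gap, and in BT474 14 did.

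Arm use at the PANK2 hairpin was strongly one-sided. The 5p arm took 29 of 71655 counts in MDA-MB-468, a share of 0.0405% (0.0271 to 0.0581), and 2 of 21012 in BT474, a share of 0.00952% (0.00115 to 0.0344). The intervals overlapped, although the ratio between the folds of the 2 arms, 4.25, had an interval of 1.08 to 36.8. The shares also use 3p counts that mir-103a-1 can have supplied. A 5p tag that starts at base 2 is likewise the same in both hairpins, so the shares are not those of the PANK2 hairpin alone. Of 161 hairpins with both arms in the table and at least 100 counts in both libraries, the rarer arm took a median of 1.09% in MDA-MB-468 and of 0.911% in BT474. In these, 33 and 38 hairpins had a smaller share than mir-103a-2. An arm left blank in a library was taken as 0 here. The 33 and 38 can therefore include hairpins whose rarer arm was not listed, and how many do was not counted.

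miR-103 and miR-107 belong to a wider set, the group of miR-15 and miR-107, whose members carry AGCAGC near the 5′ end and are known for repressing cell-cycle genes. The letters AGCAGC lie within bases 1 to 8 of 13 of the 2370 mature names, or 0.549%. They start at base 1 in miR-103a-3p and miR-107 but at base 2 in the other members of the list used here, which gives these a different seed. The most abundant of the others and those called are shown, with AGCAGC in capitals.
hsa-miR-15b-5p: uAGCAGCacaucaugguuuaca
hsa-miR-16-5p: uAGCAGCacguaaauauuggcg
hsa-miR-195-5p: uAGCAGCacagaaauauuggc
hsa-miR-497-5p: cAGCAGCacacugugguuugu
hsa-miR-503-5p: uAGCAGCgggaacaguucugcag
Of the 8 other members in the list, 7 had at least 10 counts in a library. None was called higher in MDA-MB-468, 3 were called higher in BT474 and 4 neither, where 32.9% of the 690 miRNAs were called toward MDA-MB-468 and 28.3% toward BT474. Their median log2 ratio was -0.84 beside 0.30 over all 690 miRNAs.

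The log2 ratios of miR-103a-3p and miR-107 were above those of the other 7, while in level miR-107 lay below miR-15b-5p and miR-16-5p in both libraries. In MDA-MB-468 and BT474, miR-15b-5p stood at 693 and 701 CPM (log2 ratio -0.02, interval -0.07 to 0.04) and miR-16-5p at 479 and 484 CPM (-0.02, -0.08 to 0.05). Neither differed beyond counting error under this scaling. miR-195-5p and miR-497-5p, which are made from 1 cluster on chromosome 17, were lower in MDA-MB-468, at 13.9 against 106 CPM and 4.37 against 22.2 CPM, with log2 ratios of -2.93 (-3.20 to -2.68) and -2.35 (-2.86 to -1.85). miR-503-5p had 24.3 and 59.0 CPM (-1.28, -1.52 to -1.04). miR-15a-5p (-0.84, interval -1.11 to -0.57, toward BT474 but under 2-fold) and miR-424-5p (0.39, interval -0.10 to 0.90, overlapping those of the pair) were not called. miR-646 had no count listed in MDA-MB-468 and 2 in BT474. miR-103a-3p and miR-107 together held 84.3% of the counts of the group in MDA-MB-468 (84.0 to 84.5) and 75.3% in BT474 (74.8 to 75.8). The group as a whole made up 0.793% of all MDA-MB-468 counts and 0.575% of all BT474 counts.

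**Figure D3:**
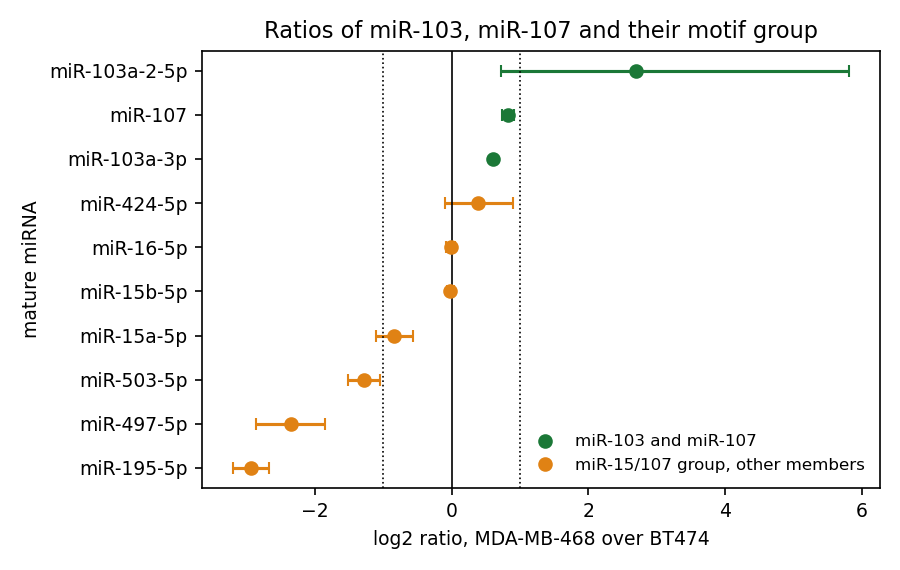
Log2 ratio of MDA-MB-468 over BT474 for miR-103a-3p, miR-107 and the 7 other AGCAGC members with at least 10 counts in a library. miR-103a-2-5p, which does not carry AGCAGC, is shown beside them. Bars are 95% counting intervals and dotted lines mark 2-fold. The products of the PANK hairpins lie at 0.61 or above, miR-424-5p, miR-16-5p and miR-15b-5p lie from -0.02 to 0.39, and miR-195-5p lies lowest at -2.93.

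DICER1, the reported target, was not measured in these libraries, but its transcript can be read for the seed. The 3′ untranslated region of the DICER1 principal transcript (GENCODE 29, GRCh38, chromosome 14, minus strand) is 4270 bases long and holds 5 copies of ATGCTGC, the letters that pair with bases 2 to 8 of both miRNAs, searched on the transcript strand. They are shown in capitals with 8 bases on either side, in order along the transcript, because a reader can set them against the seed above.
chr14:95089458-95089464: cctaaaatATGCTGCagatttta
chr14:95088857-95088863: ttcgtggaATGCTGCatttatat
chr14:95087653-95087659: tcctaactATGCTGCgttttata
chr14:95086382-95086388: accatcacATGCTGCagctgttt
chr14:95086330-95086336: cagtaatcATGCTGCagaaattt
Of 1794 genes with a 3′ untranslated region at least this long, 26.9% hold at least 1 copy in the first 4270 bases, the median number is 0, and 1 gene, DICER1 itself, holds 5 (0.0557%). For genes other than DICER1, the longest 3′ untranslated region among the transcripts searched was used. A match is a description of letters and does not show that the miRNA acts there.

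The let-7 guides, which have also been reported to target DICER1, had far more counts. Their 9 members summed to 107626 CPM in MDA-MB-468 and to 130284 CPM in BT474, against 6680 and 4332 CPM for miR-103a-3p and miR-107. Of the 9, none was called higher in MDA-MB-468, let-7d-5p was called higher in BT474 (810 and 3375 CPM, log2 ratio -2.06, interval -2.10 to -2.02) and 8 were not called. The median log2 ratio of the 9 was 0.00. Among the 8, the lowest ratios were those of let-7a-5p (-0.88, interval -0.90 to -0.86) and let-7f-5p (-0.80, -0.80 to -0.79). The highest were those of let-7e-5p (0.41, 0.38 to 0.43) and miR-98-5p (0.17, 0.14 to 0.21). Over all 690 miRNAs 61.2% were called, 28.3% toward BT474.

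The choice of scaling set how large the difference in the guides appeared. The log2 ratio of miR-103a-3p was 0.61 with the total of annotated miRNAs and ranged from 0.25 to 0.68 over 8 alternatives, and that of miR-107 was 0.83 and ranged from 0.46 to 0.88. In the authors' deposited normalized table, miR-103a-3p had scores of 5514 in MDA-MB-468 and 3439 in BT474, miR-107 had 361 and 196, and miR-103a-2-5p was blank in both. Both guides stayed higher in MDA-MB-468, under 2-fold, in each alternative run.

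**Figure D4:**
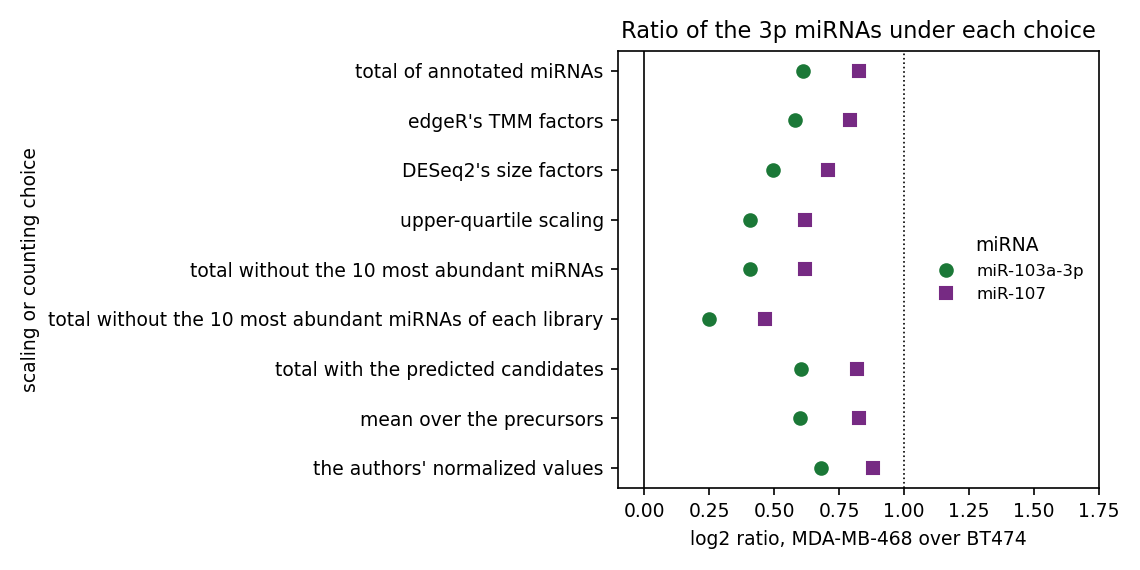
Log2 ratio of MDA-MB-468 over BT474 (x) for miR-103a-3p and miR-107 under the scaling used and 8 alternatives (y), with the dotted line at 2-fold. All points lie between 0 and 1, and miR-107 lies to the right of miR-103a-3p in each line.

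Annotated miRNAs took 11448022 counts in the MDA-MB-468 library, and 5133057 in the other. All 5 epithelial markers of the miR-200 family were listed in both, summing to 71005 and 58056 CPM. They went opposite ways: miR-200b-3p had 50451 and 24579 CPM, whereas miR-200c-3p had 10434 and 26622 CPM and miR-141-3p 104 and 294 CPM. The 3 blood-cell markers with at least 10 counts of the 5 chosen summed to 21.0 and 35.5 CPM, with miR-223-3p at 2 counts in each library. The 4 stromal markers with at least 10 counts of the 5 chosen summed to 375 and 179 CPM, most of it miR-143-3p. Of the same list, miR-199a-3p was lower in MDA-MB-468 (2.88 against 12.1 CPM), and miR-214-3p had no count listed in MDA-MB-468 and 2 in BT474. The part of such cells in the levels of miR-103 and miR-107 was not tested, and the sorted surface proteins were not measured here.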

How the data were processed

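Total RNA of 2 sorted cell line samples was made into small-RNA libraries and read on an Illumina HiSeq, per the labels' protocols. The authors deposited raw tag counts, per the file headers summed over all isoforms for each pair of mature miRNA and precursor, and a second table of whole-number normalized scores whose method is not described per the file headers. The submitters' processing notes name Novoalign 2.07.11; for build, annotation release and counting tool the sources used here give nothing. The column MAD-MB-468 was taken for the line MDA-MB-468. Blank cells are values not listed, and the smallest listed count is 2.

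Of 2121 rows, 384 predicted candidates were left out. A name on several precursors took its largest count, and miR-199a-3p and miR-199b-3p, with equal counts, were merged, leaving 1623 names. CPM used the total of these, 11448022 in MDA-MB-468 and 5133057 in BT474, where 100 counts are 8.74 and 19.5 CPM. In ratios, blanks took a floor of 3 counts (0.262 and 0.584 CPM), which is above the smallest listed count. The interval of a ratio took a blank as 0, so the call of such a miRNA rests on both values. The minimum was 10 counts in a library. Intervals (scipy 1.17.1, Python 3.11.15) cover counting error only and treat reads as independent. Reads amplified by PCR and not tagged per molecule are not independent, so the intervals are too narrow even for counting error. With 1 library per group no test was possible. Alternative scalings used DESeq2 1.42.0 size factors and edgeR 4.0.16 TMM and upper-quartile factors, over miRNAs with at least 10 counts (R 4.3.3). The interval and call rule were run on simulated Poisson counts, the model that the interval assumes. That run checks the calculation only, because it holds no PCR copies and no spread between cultures. Named miRNAs were all members, the group of miR-15 and miR-107, the let-7 guides, marker lists, neighbours in abundance and the 5 nearest in level. The members, lists and rules were chosen with earlier results of these data known. The share of the PANK2 hairpin among miR-103a 5p counts was planned but not computed, because the table has no row for miR-103a-1-5p. miRNA sequences are from RefSeq (GRCh38.p14), hosts and the DICER1 transcript from GENCODE 29 (GRCh38).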

Additional observations from a re-analysis of the deposited data

How the results depend on the processing

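The log2 ratio of miR-103a-3p (0.61) moved beyond its counting interval to 0.58 with edgeR's TMM factors, 0.49 with DESeq2's size factors, 0.40 with upper-quartile scaling, 0.40 without the 10 most abundant miRNAs and 0.68 with the authors' normalized values. That of miR-107 (0.83) moved to 0.71 with DESeq2's size factors, 0.62 with upper-quartile scaling and 0.62 without the 10 most abundant. Leaving out the 10 most abundant of each library, an alternative chosen after seeing the data, gave 0.25 and 0.46. These scalings shift every miRNA alike, by -0.12 (DESeq2), -0.21 (upper quartile and the 10 most abundant) and -0.36 (the 10 of each library). The share of miR-107 in MDA-MB-468 was 6.14% from the normalized values, still above 5.39% in BT474. miR-103a-2-5p ranged from 2.34 to 2.70 under 7 alternatives, whose shifts are too small to end its call; it does not reach the minimum of 50 counts. The normalized table, where it is blank, gave no value for it or for the arm share. With at least 50 counts, fewer miRNAs entered, and 146 were called higher and 103 lower in MDA-MB-468, each more than 1.5 times fewer; in 7 other alternatives each count stayed within 1.5 times. No paired analysis was possible because each group has 1 library. The ratio of miR-103a-2-5p rests on 2 BT474 counts, and the spread between cultures was not measured.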
